A study of Mus musculus with 44 samples.

Results

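The genes described here are 36 transcripts of glucose breakdown and of the response to low oxygen, chosen by their symbols from a list of names. All 36 were found in both deposited tables, among 24150 genes listed for lungs of mice with subcutaneous tumours and 26940 genes listed for lungs of mice given tumour cells through the trachea. They comprise 3 transporters of glucose and lactate, 9 enzymes of upper and 8 enzymes of lower glycolysis, 4 regulators of flux, 4 oxygen-sensing genes and 8 other targets of hypoxia. Messenger RNA (polyA RNA) was sequenced from 44 pieces of lung of about 3 mm3 from C57BL6j mice, in a study of how a mutation of Timp2 and daily injections of recombinant human TIMP2 (rTIMP2) bear on lung tumours. TIMP2, a secreted protein, inhibits matrix metalloproteinases.

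In the subcutaneous model, LL/2-Luc2 cells (Lewis lung carcinoma cells with a luciferase reporter gene) grew under the skin of the dorsal flank of wild-type mice, whose lungs the labels name early metastatic. The groups received the vehicle HBSS, a salt solution (n = 5), daily rTIMP2 started on day 0 (n = 5) or daily rTIMP2 started on day 7 (n = 4). For the intratracheal model, wild-type mice and mice of the genotype mutant Timp2 were tumour-free, carried LL/2-Luc2 tumours under HBSS or carried them under rTIMP2, and these 6 groups had n = 5 each. rTIMP2 was injected into the peritoneum at 200 µg per kg per day. The labels say no more about the mutant allele, and the start of treatment in the intratracheal model is not among them. The treatment entries of the treated intratracheal libraries count upward from Timp2 to Timp11, whereas their titles all name T2, and the titles were followed. Age is not given, and nothing states that replicates came from separate animals, so p-values measure only the spread between these libraries, which may be technical.

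Glycolysis splits glucose into pyruvate, which lactate dehydrogenase turns into lactate when pyruvate does not enter the mitochondria. The hypoxia-inducible factors HIF-1 and HIF-2, whose alpha subunits are encoded by Hif1a and Epas1, bind a short motif near many of these genes when prolyl hydroxylases such as those encoded by Egln1 and Egln3 lack oxygen. In normal lung, Epas1 is abundant in endothelial and alveolar cells and Vegfa in alveolar type 1 cells, while many tumour cells express glycolytic genes strongly.

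Levels are normalized counts as the authors deposited them, and every fold change is on the scale of log2(value + 1), fitted with limma over all genes tested and called at an adjusted p under 0.05. Depth was estimated as a library's total over its most frequent low value, taken as a single read. It was 14.86 to 19.41 M reads in the subcutaneous and 10.68 to 17.14 M reads in the intratracheal libraries. Luc2, the reporter, was at 0 in all 10 tumour-free libraries, and at 39.3 to 69.2 in wild-type and 47.6 to 70.9 in mutant HBSS tumour lungs. In subcutaneous HBSS lungs it was at 14.3 to 31.3, where Hmga2, another transcript listed for these cells, stayed at 1.01 to 6.40. Among the treated tumour lungs Luc2 was at 0 in wild-type replicates 2, 3 and 5 and at 0.983 in mutant replicate 2. Timp2 averaged 10619 ± 519 (SD, n = 5) in wild-type and 6105 ± 144 (SD, n = 5) in mutant tumour-free lungs. In HBSS tumour lungs it averaged 6900 ± 838 (SD, n = 5) and 8809 ± 2371 (SD, n = 5), with overlapping values, so its level does not separate the genotypes there. Summed Acta1, Ckm and Myh4, which encode skeletal muscle proteins, exceeded 1000 in 6 libraries: subcutaneous HBSS replicate 1, wild-type HBSS replicates 1 (22996) and 4 (6119), wild-type rTIMP2 replicates 2 (18996) and 3 (125568) and mutant HBSS replicate 4. Tumour-free libraries held Xist at 4118 to 6657 and Ddx3y below 6, whereas all HBSS tumour lungs held both transcripts. Sex-linked transcripts and tumour therefore cannot be told apart, nor can a separate cohort, since the tumour-free libraries carry numbers of another range in their labels. No source used here gives the strand of counting or the handling of reads that fit several places. Members with processed copies in the genome, such as Gapdh, Eno1, Ldha and Tpi1, have uncertain absolute levels, and a second identifier named Aldoa (0.897 to 12.9) was not used.

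Intratracheal tumours were accompanied by higher levels of most glycolytic enzymes in both genotypes, while Epas1, Ldhb, Vegfa and Pfkfb3 were far lower. In wild-type HBSS tumour lungs, 22 of the 36 members rose and 7 fell against tumour-free lungs. In mutant lungs 21 rose and 8 fell. These counts stand against 70.5% of all genes called in wild-type and 67.4% in mutant lungs (32.8% and 31.5% higher, 37.7% and 35.9% lower), so being called is common here, and the members differ from all genes mainly in direction. The median member change was 0.95 in wild-type and 0.96 in mutant lungs on the log2 scale, beside -0.07 and -0.05 over all genes. Values of the groups did not overlap for 19 members that were higher and 7 that were lower in wild-type tumour lungs (background 26% and 31.1% of all genes), and for 18 and 7 in mutant tumour lungs (26.6% and 31.4%).

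**Figure D1:**
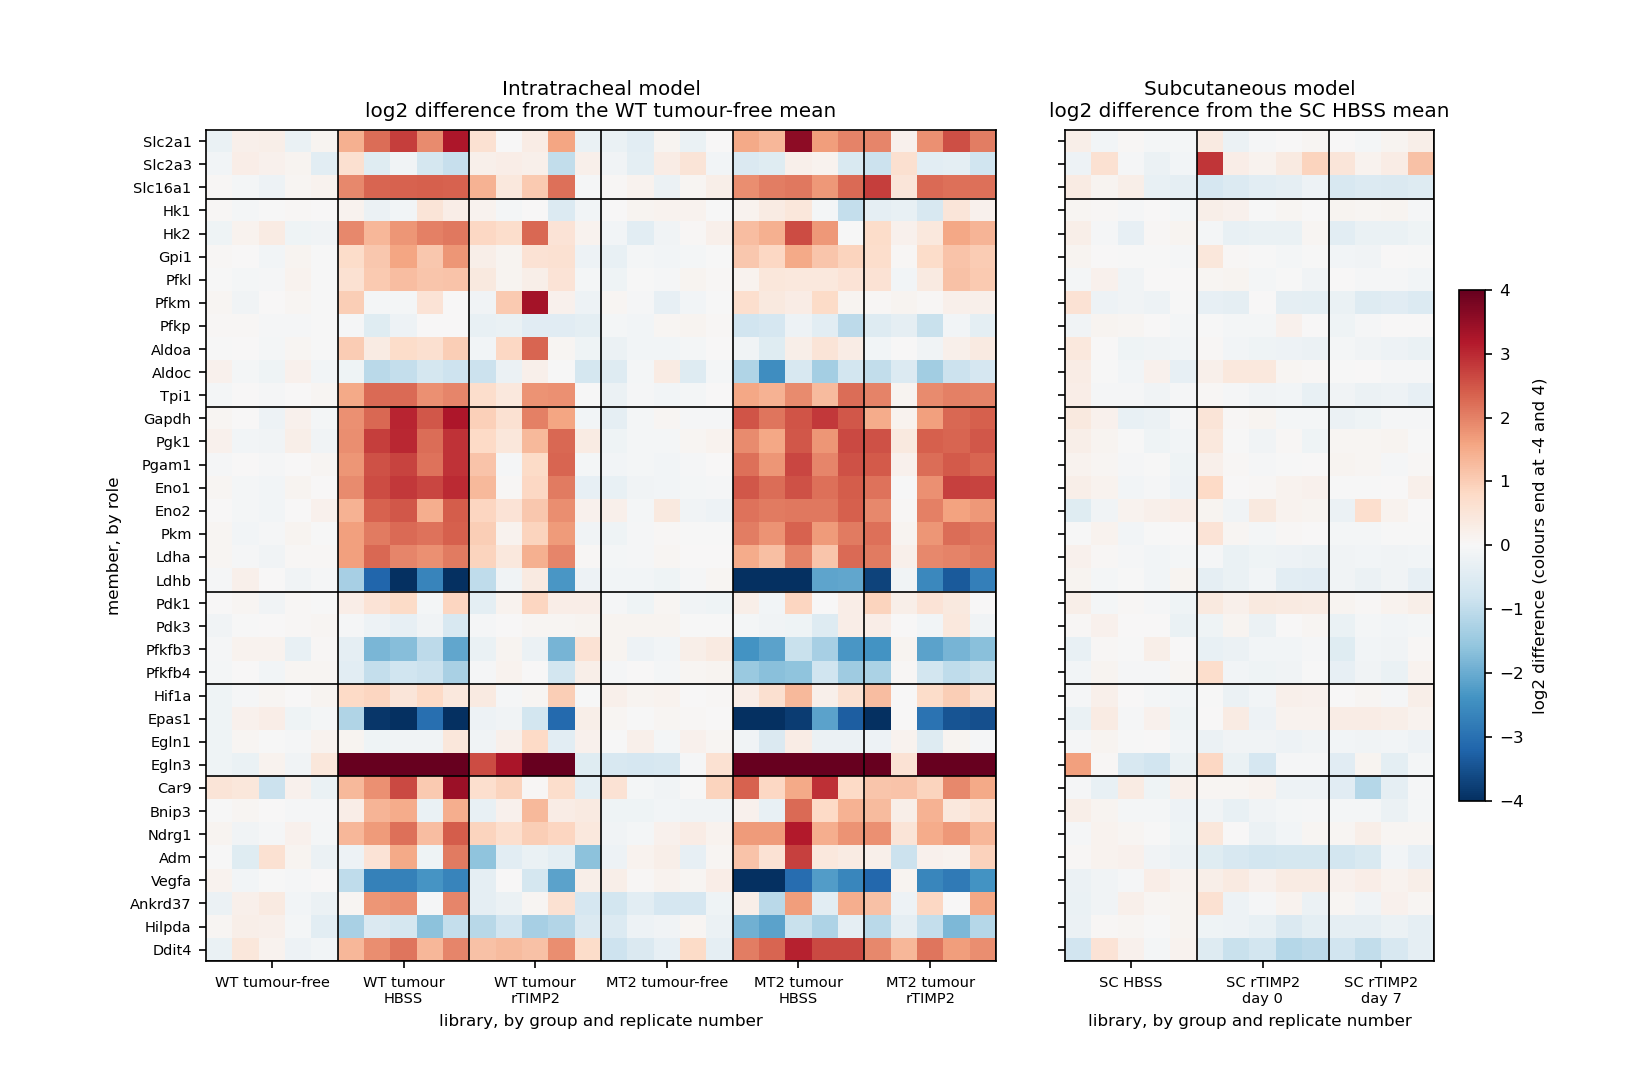
Heat map of the 36 members (rows, by role) in every library (columns, by group and replicate number), as the log2 difference from the mean of wild-type tumour-free lungs (intratracheal model) or of HBSS lungs (subcutaneous model). The HBSS tumour columns are red for most enzymes and blue for Ldhb, Epas1, Vegfa and Pfkfb3, wild-type rTIMP2 replicates 2 and 5 and mutant rTIMP2 replicate 2 are mostly pale, and the subcutaneous columns are mostly pale, with Slc2a3 in day 0 replicate 1 and Egln3 in HBSS replicate 1 the strongest red.

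The cell types of the lung moved with these members. In both genotypes, 8 of 8 endothelial, 6 of 6 alveolar type 1, 6 of 6 alveolar type 2, 4 of 4 club and airway and 5 of 5 erythroid markers fell with tumour. All 5 of 5 transcripts listed for the injected cells and 8 of 8 proliferation genes rose. The 5 are Luc2, Hmga2, Rhox5, Igf2bp1 and Fosl1, of which the labels tie only the reporter Luc2 to those cells. That list was chosen with earlier results of these data known. The summed endothelial markers were at 53508 to 59058 in wild-type tumour-free lungs and 3906 to 19072 in wild-type HBSS tumour lungs. In mutant lungs the corresponding sums were 53533 to 58532 and 2386 to 10424. Alveolar type 1 sums were 65446 to 70824 without and 10154 to 32092 with tumour in wild-type lungs, and 63359 to 69053 without and 8091 to 27876 with tumour in mutant lungs. The sums of the injected-cell transcripts were 55.1 to 92.8 without and 4415 to 10622 with tumour in wild-type lungs, and 48.2 to 63.0 and 7657 to 8836 in mutant lungs, with Luc2 as the only one at 0 in every tumour-free library. Of 8 macrophage markers 3 rose and 2 fell in each genotype, and their sum, at 4441 to 5547 in wild-type and 4734 to 5441 in mutant tumour-free lungs, was higher in all HBSS tumour lungs, at 7100.1 to 12466 and 8721 to 11852. Of 5 fibroblast markers 2 rose and 3 fell in each genotype. Fewer cells of a type and less RNA per cell cannot be told apart in pieces of whole lung, and the share of the member changes that goes with cell types was not tested.

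Of the transporters, Slc2a1 encodes GLUT1, the widespread glucose carrier. Wild-type tumour-free lungs held Slc2a1 at 369, 505, 514, 365 and 479. The wild-type HBSS tumour lungs were at 1192, 2083, 2992, 1637 and 4149. All 5 tumour lungs exceeded all 5 tumour-free lungs, and Slc2a1 rose by 2.31 ± 0.29 (SE; adjusted p = 6.18e-05) on the log2 scale. Mutant tumour-free lungs held it at 371, 332, 479.7, 370.4 and 445. Mutant HBSS tumour lungs were at 1256, 1114, 5229, 1403 and 1753. The groups were again separate, with replicate 3 the highest by far, and the rise was 2.17 ± 0.36 (SE; adjusted p = 2.46e-04). Slc16a1, which encodes the lactate carrier MCT1, rose by 2.27 ± 0.11 (SE; adjusted p = 2.32e-07) in wild-type lungs, where its levels were 401 to 515 without and 1753 to 2458 with tumour. It also rose in mutant lungs, by 1.96. Slc2a3, which encodes GLUT3, changed by -0.32 ± 0.27 (SE) and -0.30 ± 0.23 (SE) and did not pass the test.

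In upper glycolysis, 5 enzymes rose in each genotype: Hk2 (hexokinase, the first step), Gpi1 (phosphoglucose isomerase), Pfkl (liver-type phosphofructokinase) and Tpi1 (triosephosphate isomerase) in both, with Aldoa (an aldolase) in wild-type and Pfkm (muscle-type phosphofructokinase) in mutant lungs. Tpi1 was at 1467, 1544, 1494, 1569.7 and 1634 in wild-type tumour-free lungs. It reached 4387, 7481, 7335, 5444 and 6029.6 in wild-type HBSS tumour lungs. The 2 groups lay well apart, with a rise of 1.97 on the log2 scale. In mutant lungs Tpi1 was at 1319, 1499, 1437, 1471 and 1567 without tumour. With tumour it was at 4526, 4011, 5694, 3724 and 7326. The mutant rise was 1.75, again without overlap. The other upper rises lay between 0.74 (Aldoa) and 1.82 (Hk2) in wild-type and between 0.41 (Pfkl) and 1.46 (Hk2) in mutant lungs. The call of Pfkm in mutant lungs was lost when all intratracheal groups entered 1 fit.

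Aldoc, the aldolase best known from brain, was the upper enzyme that fell in both genotypes. Its levels were 149, 123, 117, 147 and 122 in wild-type tumour-free lungs. They were 117, 61.2, 67.9, 79.6 and 73.6 in wild-type HBSS tumour lungs. The fall was by 0.74 on the log2 scale, with replicate 1 of the tumour group just under the lowest tumour-free library. In mutant lungs Aldoc was at 91.0, 125, 166, 91.0 and 123 without tumour. With tumour it was at 56.2, 22.6, 83.1, 50.4 and 77.6. It fell by 1.12 there, with replicate 2 the lowest. Pfkp, the platelet-type phosphofructokinase, fell in mutant lungs by 0.62, and its wild-type change of -0.15 ± 0.10 (SE) did not pass. Hk1, the hexokinase of most normal tissues, changed by 0.12 ± 0.13 (SE) and -0.10 ± 0.23 (SE) without passing.

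All 8 lower-glycolysis members were called in both genotypes, 7 of them higher. Gapdh (glyceraldehyde-3-phosphate dehydrogenase), Pgk1 (phosphoglycerate kinase), Pgam1 (phosphoglycerate mutase), Eno1 and Eno2 (enolases), Pkm (pyruvate kinase) and Ldha (lactate dehydrogenase A) rose by 1.96 to 2.60 on the log2 scale in wild-type and by 1.62 to 2.59 in mutant lungs. Eno1 was at 1434, 1285, 1274, 1463 and 1366 in wild-type tumour-free lungs. It was at 5089, 8372, 9782, 8652 and 10729.5 in wild-type HBSS tumour lungs. Every tumour library held at least 5089, and Eno1 rose by 2.60 ± 0.18 (SE; adjusted p = 1.03e-06). Gapdh, the largest rise of mutant lungs in this stage, was at 553, 676, 742, 687 and 684 without tumour. Mutant tumour lungs held 4064, 3111, 4044, 5023 and 4001. The groups did not overlap, and Gapdh rose by 2.59 ± 0.14 (SE; adjusted p = 1.54e-07).

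The other lower enzymes followed closely. In wild-type lungs Gapdh rose by 2.58 ± 0.23 (SE; adjusted p = 6.52e-06). Pgk1, which like Pdk3 lies on the X chromosome, rose by 2.56 ± 0.21 (SE; adjusted p = 3.28e-06). Pgam1 rose by 2.41 ± 0.19 (SE; adjusted p = 2.25e-06). These were changes of about the same size. Pkm rose by 2.12 ± 0.14 (SE; adjusted p = 8.33e-07). In mutant lungs Eno1 rose by 2.51 ± 0.12 (SE; adjusted p = 5.37e-08). Pgam1 rose by 2.29 ± 0.17 (SE; adjusted p = 8.14e-07). The remaining mutant rises were somewhat smaller. Eno2, the enolase of neurons, rose by 2.15 ± 0.18 (SE; adjusted p = 1.91e-06), Pgk1 by 2.08 ± 0.20 (SE; adjusted p = 5.03e-06) and Pkm by 2.05 ± 0.14 (SE; adjusted p = 5.50e-07).

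Ldhb went the other way. It encodes the B subunit of lactate dehydrogenase, which prevails in heart and other oxidative tissues. Wild-type tumour-free lungs held Ldhb at 2054, 2438, 2134, 1904 and 2062. Wild-type HBSS tumour lungs held 839, 235, 127, 335 and 71.4. Replicate 1 kept the most and replicate 5 the least, none reached a tumour-free library, and Ldhb changed by -3.21 ± 0.53 (SE; adjusted p = 2.91e-04). In mutant lungs it was at 1957, 1963, 1894, 2029 and 2238 without tumour. The mutant tumour lungs were at 109, 65.6, 133, 487 and 494. Again no values overlapped, and the change was -3.42 ± 0.50 (SE; adjusted p = 1.03e-04). Ldha, its partner gene, was at 3006 to 3476 and 10331 to 16114 in the same wild-type groups.

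The windows of 250 bases before the RefSeq start of Ldha and Ldhb are shown because these partner genes moved in opposite directions. Capitals mark the HIF core motif, which is ACGTG or, in its other form, GCGTG, on either strand. On the reverse strand these read CACGT and, for the other form, CACGC, and the run CACGTG holds a match on both strands. Sequences are from RefSeq (GRCm38.p6), written 5′ to 3′ on the strand of the gene. The Ldha window belongs to the more upstream of its 2 starts with a window, which lies inside the annotated gene.
Ldha (chr7:46845554-46845803, plus strand): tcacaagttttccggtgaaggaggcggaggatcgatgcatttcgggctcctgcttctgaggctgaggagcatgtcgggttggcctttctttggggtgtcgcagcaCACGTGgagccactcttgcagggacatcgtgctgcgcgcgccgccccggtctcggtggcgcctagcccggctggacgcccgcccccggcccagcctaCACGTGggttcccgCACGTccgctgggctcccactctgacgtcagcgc
Ldhb (chr6:142507958-142508207, minus strand): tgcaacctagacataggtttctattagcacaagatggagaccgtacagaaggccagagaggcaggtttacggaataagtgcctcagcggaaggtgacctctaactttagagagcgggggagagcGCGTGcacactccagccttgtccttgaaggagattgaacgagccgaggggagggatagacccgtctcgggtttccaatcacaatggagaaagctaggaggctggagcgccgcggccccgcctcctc
The Ldha window holds CACGTG at 145 and 48 bases and CACGT at 34 bases before the start. The Ldhb window holds GCGTG at 126 bases before the start.

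Of the regulators, Pfkfb3 and Pfkfb4 encode the enzymes that set fructose-2,6-bisphosphate, the main activator of phosphofructokinase, and both fell in both genotypes. Pfkfb3 was at 1483, 1709, 1699, 1259.6 and 1572 in wild-type tumour-free lungs. It was at 1196, 429, 468, 735 and 360.1 in wild-type HBSS tumour lungs. Replicate 1 lay close to the tumour-free group and the other 4 far under it, with a fall by 1.41 on the log2 scale. In mutant lungs Pfkfb3 was at 1645, 1335, 1428, 1820.0 and 1974 without tumour. Mutant tumour lungs held 293, 348, 822, 608 and 308. The mutant fall was by 1.90, without overlap. Pfkfb4 fell by 0.87 and 1.41.

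Pdk1 encodes a kinase that shuts pyruvate out of the mitochondria. Pdk1 was at 533, 565, 485, 542 and 528 in wild-type tumour-free lungs. It was at 644, 778, 894, 498 and 964 in wild-type HBSS tumour lungs. Replicate 4 lay within the tumour-free range, and the rise of 0.47 was lost without HBSS replicate 3 or 5 or tumour-free replicate 3. In mutant lungs Pdk1 changed by 0.34 ± 0.17 (SE) and did not pass. Pdk3, a related kinase, changed by -0.27 ± 0.13 (SE) and -0.18 ± 0.15 (SE) and did not pass.

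Among the oxygen-sensing genes, the largest rise and the largest fall of all 36 members met. Egln3, the prolyl hydroxylase that is itself strongly induced by hypoxia, was at 35.6, 33.0, 44.0, 36.1 and 55.0 in wild-type tumour-free lungs. It was at 784, 1305, 1298, 1041 and 2088 in wild-type HBSS tumour lungs. Egln3 rose by 4.91 ± 0.24 (SE; adjusted p = 2.27e-07) on the log2 scale, 30.1-fold, and no values overlapped. In mutant lungs it was at 25.6, 24.7, 25.4, 39.1 and 61.9 without tumour. The mutant tumour lungs were at 1014, 1249, 2872, 920.0 and 997. Replicate 3 was the highest, and the rise was 5.23 ± 0.35 (SE; adjusted p = 4.44e-07), 37.4-fold. Egln1, the hydroxylase that sets HIF stability in most cells, changed by 0.026 ± 0.13 (SE) and -0.24 ± 0.16 (SE) without passing.

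Epas1 encodes HIF-2 alpha. Epas1 was at 34144, 43658, 46798, 34294 and 37037 in wild-type tumour-free lungs. It was at 16995, 2627, 1661, 4827 and 837 in wild-type HBSS tumour lungs. Replicate 1 kept the most, still under every tumour-free library, and Epas1 changed by -3.63 ± 0.64 (SE; adjusted p = 4.85e-04). In mutant lungs it was at 41122, 38224, 40702, 40504 and 39365 without tumour. With tumour it was at 729, 1087, 2806, 8738 and 3945. The change was -4.07 ± 0.55 (SE; adjusted p = 5.48e-05), the largest fall among the members in either genotype. Hif1a, which encodes HIF-1 alpha, rose by 0.68 and 0.51. Its call in mutant lungs was lost without HBSS replicate 2 or without any of tumour-free replicates 2 to 5. The falls of Epas1 stood beside the falls of 8 of 8 endothelial markers given above, and their part in the change was not tested.

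**Figure D2:**
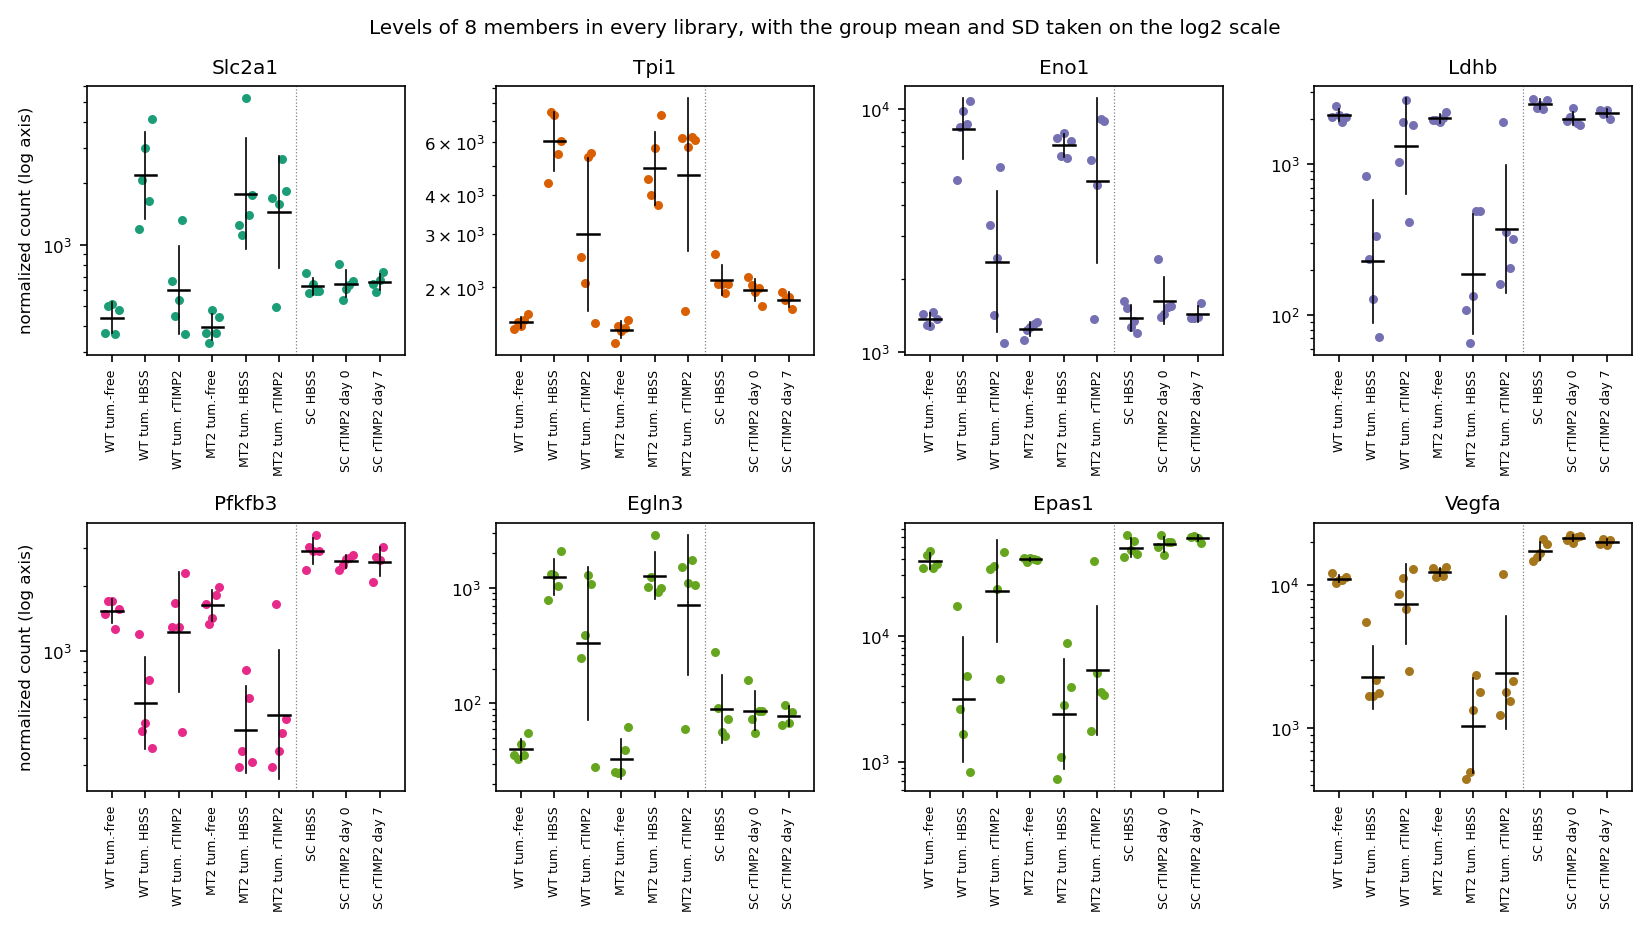
Levels of 8 members in every library (points, normalized count on a log axis) by group, with the group mean and SD taken on the log2 scale (lines). Slc2a1, Tpi1, Eno1 and Egln3 are high and Ldhb, Pfkfb3, Epas1 and Vegfa low in HBSS tumour lungs of both genotypes, and the treated tumour lungs spread between both states.

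The promoters of Egln3 and Egln1 are shown in the same way, because these related hydroxylases parted in tumour lungs. Capitals again mark the same motif on either strand.
Egln3 (chr12:54203875-54204124, minus strand): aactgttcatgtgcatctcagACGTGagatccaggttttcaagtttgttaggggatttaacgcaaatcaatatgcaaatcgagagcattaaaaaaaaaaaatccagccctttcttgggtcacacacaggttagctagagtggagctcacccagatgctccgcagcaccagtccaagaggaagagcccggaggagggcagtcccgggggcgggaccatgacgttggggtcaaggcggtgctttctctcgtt
Egln1 (chr8:124949255-124949504, minus strand): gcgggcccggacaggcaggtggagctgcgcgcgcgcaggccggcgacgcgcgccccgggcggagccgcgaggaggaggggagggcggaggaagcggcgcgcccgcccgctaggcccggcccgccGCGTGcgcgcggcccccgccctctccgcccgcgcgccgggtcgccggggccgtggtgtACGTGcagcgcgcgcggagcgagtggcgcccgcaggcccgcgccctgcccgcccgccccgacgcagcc
Egln3 holds 1 match, ACGTG at 229 bases before the start. Egln1 holds GCGTG at 126 and ACGTG at 68 bases before the start.

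Over 300-base windows, from 250 bases before to 50 after a start, 30 of the 33 members with a RefSeq entry held at least 1 match in 1 or more windows (90.9%), against 12628 of 27025 genes (46.7%). By window the shares were 39 of 48 for members and 14380 of 32851 for all (43.8%). The motif did not sort members by direction: 15 of 18 members called higher in both genotypes held it, as did 6 of 6 called lower and 9 of 9 others. Gpi1, Tpi1 and Eno2 held none in their windows, and all 3 rose. Base composition was not matched, and a match describes letters only. Epas1, Ndrg1 and Slc2a3 have no entry in the promoter table.

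The other targets of hypoxia split. Car9, which encodes the cell-surface carbonic anhydrase IX, was at 16.4, 15.5, 5.75, 12.7 and 9.16 in wild-type tumour-free lungs. It was at 28.7, 42.6, 75.2, 24.1 and 128 in wild-type HBSS tumour lungs. The levels were low throughout but did not overlap, and Car9 rose by 2.04 ± 0.47 (SE; adjusted p = 0.00230) on the log2 scale. At a minimum value of 50 it was not tested. Ddit4, a stress-induced inhibitor of mTORC1, was at 259, 308, 371, 792 and 362 in mutant tumour-free lungs. It was at 1938, 2321, 3906, 2890.5 and 2903 in mutant HBSS tumour lungs. Ddit4 rose by 2.81 ± 0.29 (SE; adjusted p = 7.05e-06) there, without overlap although tumour-free replicate 4 stood above its group, and by 1.72 in wild-type lungs.

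Vegfa, which encodes the main growth factor of blood vessels, fell instead. It was at 12197, 10337, 10879, 10738 and 11308 in wild-type tumour-free lungs. It was at 5484, 1685, 1689, 2170.2 and 1765 in wild-type HBSS tumour lungs. Replicate 1 kept far more than the other 4, and Vegfa changed by -2.29 ± 0.29 (SE; adjusted p = 5.86e-05). In mutant lungs it was at 13014, 11435, 12258, 11607 and 13362 without tumour. With tumour it was at 441, 496, 1352, 2354 and 1795. The change was -3.56 ± 0.42 (SE; adjusted p = 2.21e-05), with replicates 1 and 2 the lowest. All 6 alveolar type 1 markers fell beside it, and their part was not tested.

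Hilpda, a lipid-droplet protein, also fell, by 1.03 and 1.11. Ndrg1, a stress-response protein, rose by 1.78 and 1.89, and Car9 by 1.44 in mutant lungs. Bnip3, a mitophagy receptor, rose by 0.86 and 1.01. Ankrd37 rose in wild-type lungs by 1.12, and Adm, the vasodilator adrenomedullin, in mutant lungs by 1.06. The calls of these last 3 depended on single libraries. In wild-type lungs, leaving out HBSS replicate 2, 3 or 5 or tumour-free replicate 1, 3, 4 or 5 ended the call of Bnip3, and the same libraries other than tumour-free replicate 3 ended that of Ankrd37. In mutant lungs, Bnip3 was lost without HBSS replicate 3, 4 or 5 or any tumour-free library, and Adm without HBSS replicate 1 or tumour-free replicate 1, 4 or 5. Without HBSS replicate 1, wild-type lungs gained Adm, Pdk3 and Slc2a3 and reached 32 called members.

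The genotypes share no libraries, so their lists can be set side by side. Of the members that rose, 19 were called in both, which is 86.4% of the wild-type and 90.5% of the mutant list. Of those that fell, 7 were called in both, 100% of the wild-type and 87.5% of the mutant list. Aldoa, Ankrd37 and Pdk1 rose in wild-type lungs alone, and Adm and Pfkm rose and Pfkp fell in mutant lungs alone. These are differences in calls, not tested differences in size. The sign was the same for 34 of 36 members, and the changes differed by less than 0.5 on the log2 scale for 30. Of all genes, 70.5% were called in wild-type and 67.4% in mutant lungs, so shared calls can be common for other genes too. The matching shares over all genes were not computed. Both comparisons carry the limits of sex-linked transcripts and cohort given above.

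**Figure D3:**
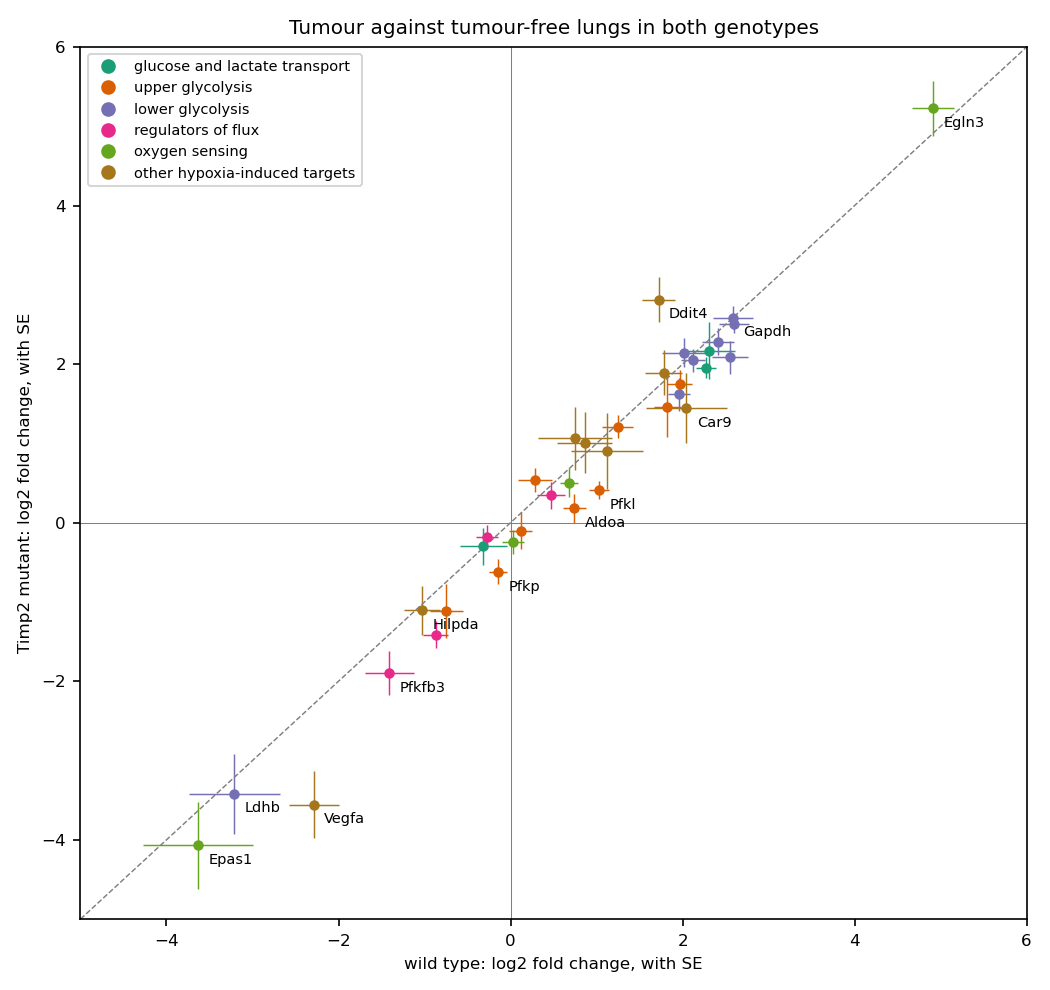
Log2 fold change of each member in HBSS tumour against tumour-free lungs, with its SE, in wild-type (horizontal) and Timp2-mutant lungs (vertical), coloured by role, with a dashed line of equal change. Most points lie near the line, with Egln3 highest and Epas1, Ldhb and Vegfa lowest in both genotypes.

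The difference between genotypes was tested directly. With limma, 0 of 36 members passed for the interaction of genotype with tumour (background 0.0223% of all genes), and 6 had an unadjusted p under 0.05 (background 9.91%). The largest estimates, named after their values were seen, were -1.27 ± 0.55 (SE; adjusted p = 0.440) for Vegfa, 1.09 ± 0.36 (SE; adjusted p = 0.275) for Ddit4 and -0.62 ± 0.16 (SE; adjusted p = 0.170) for Pfkl on the log2 scale. In tumour-free lungs 0 of 36 members differed between mutant and wild type by limma (background 0.0238%), and 4 had an unadjusted p under 0.05 (background 9.74%). Bnip3 was the 1 member without overlap there, with a change of -0.15 on the log2 scale (background 0.811%). In HBSS tumour lungs 0 of 36 differed by limma (background 0%), and 6 had an unadjusted p under 0.05 (background 7.41%). Pfkl was the 1 member without overlap, lower in mutant lungs (background 0.81%). There the median member difference was -0.24 on the log2 scale, beside -0.03 over all genes. A difference that misses the threshold does not show equal levels, and some estimates carry wide errors in tumour lungs, for example -1.11 ± 0.50 (SE) for Vegfa and -0.39 ± 0.81 (SE) for Epas1, beside -0.64 ± 0.16 (SE) for Pfkl.

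Ratios of related members within a library do not depend on how that library was scaled. For 9 pairs and 9 comparisons of 2 groups, the mean log2 ratio was compared by a two-sided exact permutation test, with adjustment over all 81 tests. A ratio also reflects the lengths of both transcripts, so only its change is read. In all, 14 tests passed, all between tumour and tumour-free lungs and each at an exact permutation p = 0.00794 (adjusted p = 0.0459), the smallest that 5 against 5 libraries allow. Ldha over Ldhb went from 0.64 ± 0.19 to 5.81 ± 1.51 (SD, n = 5 each) in wild-type lungs, and from 0.70 ± 0.10 to 5.74 ± 1.26 in mutant lungs. Hif1a over Epas1 went from -5.15 ± 0.19 to -0.83 ± 1.50 and from -5.09 ± 0.072 to -0.51 ± 1.51 in the same order. Egln3 over Egln1 went from -4.98 ± 0.25 to -0.091 ± 0.45 and from -5.32 ± 0.54 to 0.15 ± 0.50. In all 3 pairs every tumour library lay above every tumour-free library.

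Slc2a1 over Slc2a3 rose by 2.62 and 2.46, Hk2 over Hk1 by 1.71 and 1.56, and Aldoa over Aldoc by 1.49 and 1.30 in wild-type and mutant lungs. Eno1 over Eno2 rose by 0.59 in wild-type lungs, and Pfkp over Pfkm fell by 1.16 in mutant lungs. Pfkfb4 over Pfkfb3 did not pass in either genotype. Pfkp over Pfkm in wild-type lungs (-0.435, permutation adjusted p = 0.112) and Eno1 over Eno2 in mutant lungs (0.36, permutation adjusted p = 0.171) did not pass either. In the other comparisons none of the 63 tests passed, those of rTIMP2 against HBSS included. Leaving out any 1 tumour-free or HBSS tumour library left 0 of the 14: tests of 5 against 4 libraries cannot reach so small a p, and with fewer tests at the smallest p those of the other genotype no longer pass either. It therefore gives no check of these 14.

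**Figure D4:**
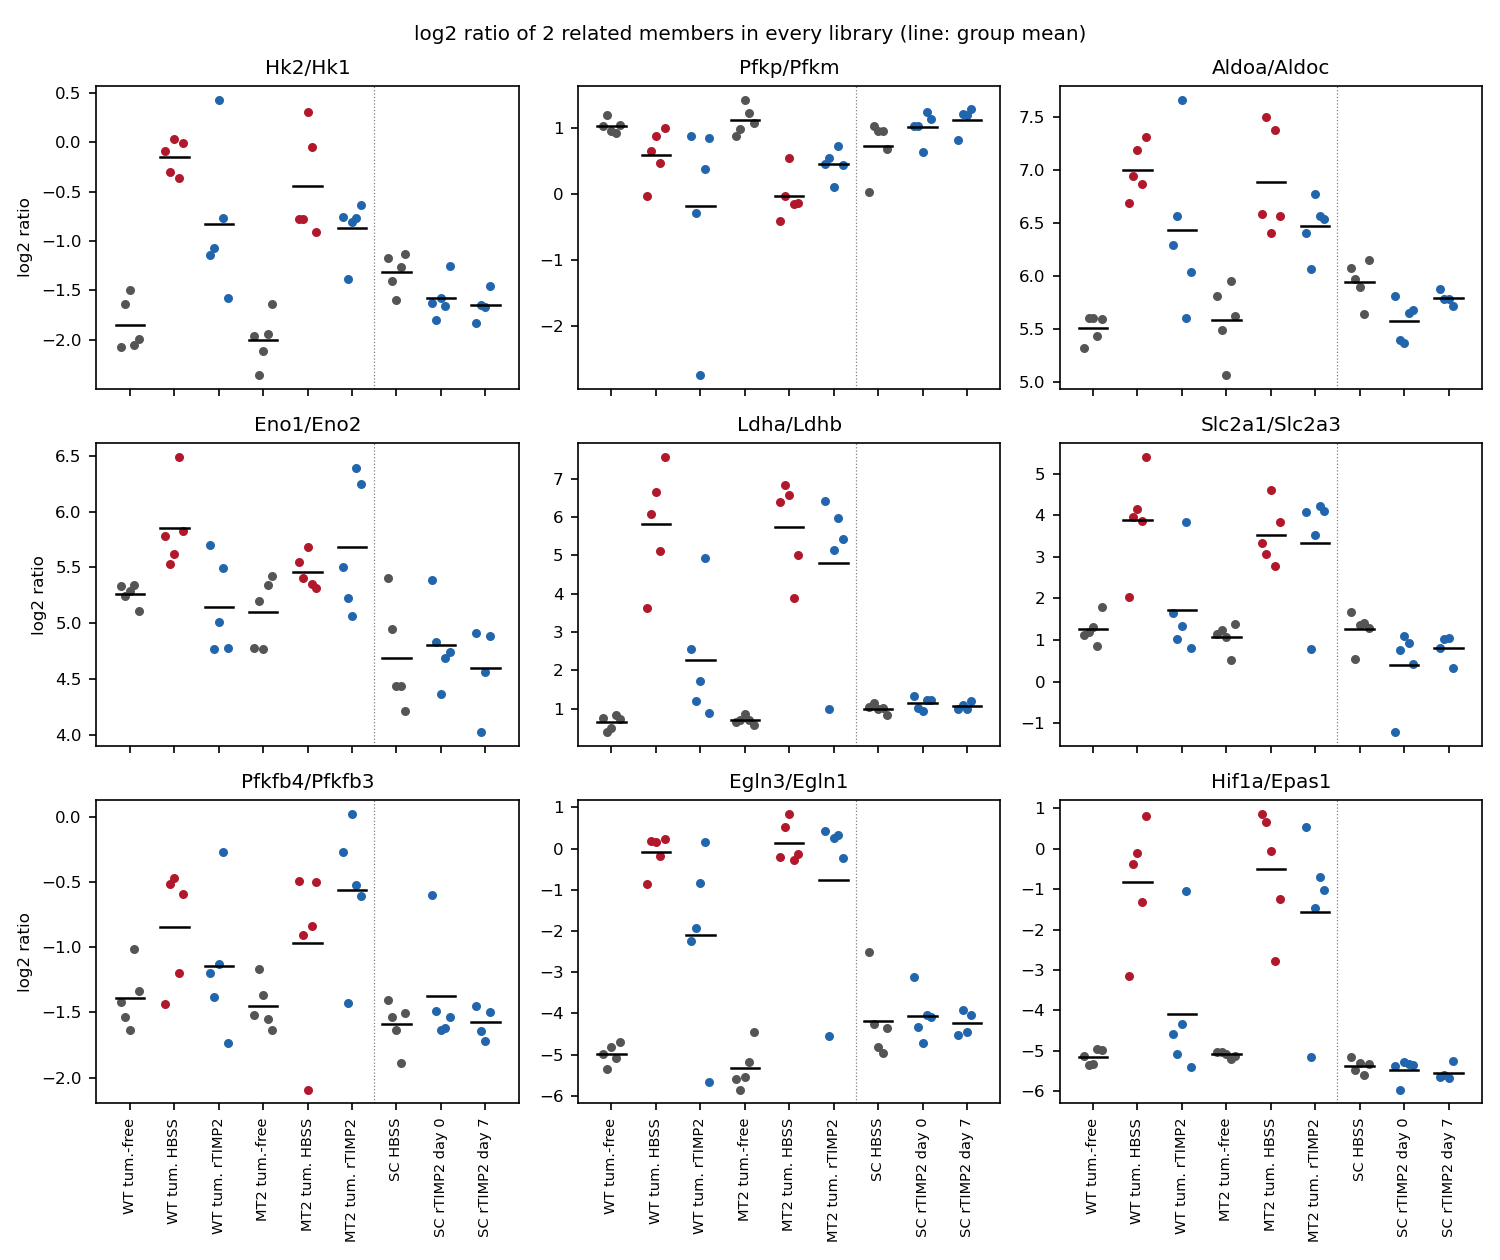
Log2 ratio of 2 related members in every library (points) for 9 pairs, by group, with the group mean (line). Red points are HBSS tumour lungs of the intratracheal model, which lie above the grey tumour-free points for Ldha/Ldhb, Hif1a/Epas1 and Egln3/Egln1, blue points are rTIMP2 lungs, and the subcutaneous groups lie to the right of the dotted line.

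Beyond the members, 73 of 76 listed genes of the same pathways were found: partners in glucose and pyruvate use, regulators of HIF and further hypoxia-induced genes. In wild-type tumour lungs 23 of the 68 tested rose and 17 fell, beside 32.8% higher and 37.7% lower among all genes. Among those of largest size were Hmox1 (heme oxygenase, 3.28 ± 0.32 SE, adjusted p = 1.13e-05), Mif (a cytokine, 3.26 ± 0.23 SE, adjusted p = 1.40e-06), Anln (a cytokinesis protein, 3.19 ± 0.11 SE, adjusted p = 5.14e-08) and Ak4 (a mitochondrial adenylate kinase, 2.62 ± 0.18 SE, adjusted p = 1.19e-06). In mutant tumour lungs 17 of 69 rose and 18 fell, beside 31.5% and 35.9% of all genes. Called genes were thus no more common here than among all genes. There Mif rose (3.08 ± 0.20 SE, adjusted p = 3.35e-07), while Slc16a7, the lactate carrier MCT2 (-3.05 ± 0.36 SE, adjusted p = 2.11e-05), Stc2, a secreted glycoprotein (-2.84 ± 0.22 SE, adjusted p = 9.69e-07), Flt1, a VEGF receptor of endothelium (-2.84 ± 0.36 SE, adjusted p = 3.33e-05), and Rora, a nuclear receptor (-2.81 ± 0.41 SE, adjusted p = 9.35e-05), fell. The median change of these genes was 0.03 in wild-type and 0.07 in mutant lungs, beside 0.95 and 0.96 for the members.

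In wild-type tumour lungs, rTIMP2 was accompanied by lower levels of most lower-glycolysis enzymes and higher levels of Epas1, Ldhb, Vegfa and Pfkfb4. Against HBSS, 14 members fell and 4 rose, where 27.3% of all genes were called (11.3% lower and 16% higher). The median member change was -0.65 on the log2 scale, beside 0.03 over all genes. This comparison shares its HBSS libraries with the tumour comparison above, so opposite signs in both are not independent. Values of the groups did not overlap for 5 members, Gpi1, Pfkl, Car9, Ndrg1 and Adm, all lower (background 2.44%). The treated libraries were very unlike each other. Luc2 was at 23.3, 0, 0, 67.7 and 0 in replicates 1 to 5, and the summed injected-cell transcripts were at 2539, 89.3, 80.6, 5878 and 79.8.

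The calls rested on the exact set of libraries. Without rTIMP2 replicate 4, which held the most Luc2, 24 members were called, and without HBSS replicate 1, 21 were. Leaving out any 1 of the other 8 libraries (rTIMP2 replicate 1, 2, 3 or 5, or HBSS replicate 2, 3, 4 or 5) left 0 called members, as did leaving out the 4 libraries with skeletal muscle transcripts. All genes went with them: 0 genes in all were called in each of those settings, beside 9584 without rTIMP2 replicate 4 and 7308 without HBSS replicate 1. The size of the changes moved less, with Slc2a1 between -2.15 and -1.63 and Eno1 between -2.14 and -1.54 over all alternatives. The folds below are therefore given beside every library's value.

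Slc2a1 was at 669, 450.1, 538, 1325 and 367 in the treated wild-type tumour lungs, against 1192, 2083, 2992, 1637 and 4149 under HBSS. Replicate 4 lay within the HBSS range and the other 4 near or within the tumour-free range of 365 to 514. Slc2a1 changed by -1.86 ± 0.40 (SE; adjusted p = 0.0398) and Slc16a1 by -1.27 ± 0.36 (SE; adjusted p = 0.0398). Of the upper enzymes, Gpi1 was at 3069, 2794, 3865, 3965 and 2244, against 4294, 5519.6, 7722, 5499 and 8918 under HBSS. All treated lungs lay under all HBSS lungs, replicates 3 and 4 being the closest, and Gpi1 changed by -0.99. Pfkl changed by -0.79, and the other 7 upper enzymes did not pass.

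Pfkm and Aldoa stood apart in treated replicate 3. Pfkm was at 394, 903, 4408, 496 and 377 and Aldoa at 5647, 10651, 30595, 6416 and 5364 in replicates 1 to 5. These are the forms of phosphofructokinase and aldolase that prevail in muscle, and replicate 3 also held the highest sum of Acta1, Ckm and Myh4 and of the squamous markers Krt13, Krt4 and Krt5 (223355). Replicate 2 was next in all 4 of these measures. In the same replicate 3, Egln3 was at 1278, Tpi1 at 5327 and Hk2 at 1744, values within the HBSS ranges of 784 to 2088 and 4387 to 7481 for the first 2 and above that of 896 to 1529 for Hk2, although Luc2 was at 0. The part of other tissue in these values was not tested.

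All 8 lower-glycolysis members were called, 7 of them lower. Eno1 was at 3314, 1419, 2431, 5770.2 and 1090.0 in treated lungs, against 5089, 8372, 9782, 8652 and 10729.5 under HBSS. Replicates 2 and 5 lay within or under the tumour-free range and replicate 4 within the HBSS range, and the change was -1.81 ± 0.42 (SE; adjusted p = 0.0398). Pgam1 changed by -1.59 ± 0.44 (SE; adjusted p = 0.0398). Gapdh changed by -1.58 ± 0.40 (SE; adjusted p = 0.0398). Pgk1 and Pkm moved by similar amounts, -1.53 ± 0.38 (SE; adjusted p = 0.0398) and -1.41 ± 0.33 (SE; adjusted p = 0.0398). Eno2 and Ldha changed by -1.11 and -1.01. Ldhb was at 1037, 1914, 2682, 418 and 1822 in treated lungs, against 839, 235, 127, 335 and 71.4 under HBSS. Replicates 2, 3 and 5 lay near or above the tumour-free range of 1904 to 2438, replicate 4 lay within the HBSS range, and Ldhb rose by 2.54 ± 0.67 (SE; adjusted p = 0.0398).

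Epas1 was at 33496, 35627, 23244, 4516 and 45402 in treated lungs, against 16995, 2627, 1661, 4827 and 837 under HBSS. Only replicate 4 stayed in the HBSS range, and Epas1 rose by 2.84 ± 0.83 (SE; adjusted p = 0.0398), the largest change of a member in this comparison. Vegfa was at 8687, 11087, 6779, 2521 and 12959, against 5484, 1685, 1689, 2170.2 and 1765 under HBSS. The treated replicates had the same order as for Epas1, with only replicate 4 and no other within the HBSS range, and Vegfa rose by 1.70 ± 0.47 (SE; adjusted p = 0.0398). Pfkfb4 was at 563, 642, 593, 353 and 688, against 440.4, 299.5, 338, 319.6 and 238 under HBSS. Replicate 4 again overlapped the HBSS group, and Pfkfb4 rose by 0.79.

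Of the other targets, Car9 was at 18.3, 21.5, 11.5, 18.8 and 8.35 in treated lungs, against 28.7, 42.6, 75.2, 24.1 and 128 under HBSS. No values overlapped, and Car9 changed by -1.67 ± 0.48 (SE; adjusted p = 0.0398). Adm was at 44.9 to 118, under all HBSS lungs, and changed by -1.61 ± 0.50 (SE; adjusted p = 0.0422). Ndrg1 changed by -1.01. Egln3 changed by -1.90 ± 0.88 (SE), a large estimate that did not pass (adjusted p = 0.110), with treated values from 28.2 in replicate 5 to 1278 in replicate 3. Hif1a changed by -0.41 ± 0.21 (SE) and did not pass.

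Cell-type markers moved with these members. Against HBSS, 8 of 8 endothelial, 6 of 6 alveolar type 1, 6 of 6 alveolar type 2 and 4 of 4 club and airway markers rose, 5 of 5 injected-cell transcripts and 7 of 8 proliferation genes fell, and 0 of 8 muscle and 0 of 3 squamous markers were called. The summed endothelial markers were at 34264, 40604, 27191, 8598 and 48887 in treated replicates 1 to 5 and at 3906 to 19072 under HBSS. Xist fell and the 4 Y-linked transcripts listed rose in treated lungs, with Xist at 1963, 42.2, 92.4, 2033 and 54.5 in replicates 1 to 5 and 2399 to 6691 under HBSS, so sex-linked transcripts and treatment cannot be told apart here. The part of these markers in the member changes was not tested. On a scale with the wild-type tumour-free mean at 0 and the HBSS tumour mean at 1, the median over the 22 members that rose with tumour was 0.40, 0.20, 0.53, 0.74 and -0.02 in treated replicates 1 to 5. Over all 11962 genes called with tumour, rises and falls pooled, it was 0.31, 0.06, 0.21, 0.97 and -0.004. Over the 7 members that fell with tumour it was 0.18, 0.03, 0.17, 0.85 and -0.06. Replicate 5 thus lay at the tumour-free level on all 3 measures. Replicates 1, 2 and 3 lay higher than the pooled value on the members that rose but not on those that fell, replicate 3 by the most. Replicate 4 lay lower than the pooled value on both sets of members. All genes were not split by direction, so the members are not shown to differ here from other genes of the same direction.

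Of the other pathway genes, 6 of 68 rose and 11 fell, beside 16% higher and 11.3% lower among all genes. The largest changes were those of Hmox1 (-2.44 ± 0.50 SE, adjusted p = 0.0398), Anln (-2.27 ± 0.66 SE, adjusted p = 0.0398), Slc16a7 (2.15 ± 0.53 SE, adjusted p = 0.0398), Rora (2.08 ± 0.63 SE, adjusted p = 0.0412) and Mif (-2.05 ± 0.48 SE, adjusted p = 0.0398).

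In Timp2-mutant tumour lungs, 0 of 36 members passed for rTIMP2 against HBSS by limma (background 0%), and 3 had an unadjusted p under 0.05 (background 9.6%). The median member change was -0.05, beside 0.03 over all genes. The summed sex-linked transcripts, Xist with the Y-linked ones, were at 2158 to 8620 in HBSS and 2653 to 5372 in treated lungs. Their part in this comparison was not tested, nor in the interaction below, which uses the same libraries. Eno2 was the 1 member without overlap (background 0.96% lower), at 134, 35.4, 144, 107 and 117 in treated and 160.3, 149, 154, 152 and 184 in HBSS lungs. Treated replicate 2 was far lower than the other 4, and the Eno2 change of -0.71 ± 0.36 (SE) did not pass. That library held Luc2 at 0.983, Eno1 at 1359 against 4854 or more in the other 4, Ldhb at 1915 against 356 or less, and Epas1 at 39122 against 5053 or less. Its endothelial sum was 44558 and that of the others at most 7907. On the scale from tumour-free (0) to HBSS tumour (1), the median over the 21 members that rose with tumour was 0.97, 0.13, 0.91, 1.10 and 0.99 in replicates 1 to 5. Over the 8 members that fell it was 0.92, 0.02, 0.76, 0.85 and 0.74, and over all 11457 genes called with tumour 1.01, 0.06, 0.90, 0.86 and 0.86. Replicate 2 thus lay near the tumour-free level and the other 4 nearer to the HBSS tumour level, on the members as on all genes.

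The interaction of genotype with rTIMP2 was called for 0 of 36 members by limma (background 0%), and 4 had an unadjusted p under 0.05 (background 5.9%). The called falls in wild-type lungs are therefore not shown to differ from the changes in mutant lungs. For Slc2a1 the wild-type change of -1.86 and the mutant change of -0.30 differed by 1.57 ± 0.68 (SE; adjusted p = 0.669).

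In the lungs of mice with subcutaneous tumours, the members changed little. With rTIMP2 from day 0, Pdk1 rose and Ddit4, Adm, Hilpda and Ldhb fell against HBSS. With rTIMP2 from day 7, Slc16a1 and Hilpda fell. The 5 called members of the first comparison stand against 8.1% of all genes called (3.88% higher and 4.21% lower), and the 2 of the second against 10.4% (4.46% higher and 5.92% lower). Called members were few in both comparisons, and no test set their share against that of all genes. The median member change was -0.0002 with the day 0 and -0.09 with the day 7 start, beside -0.003 and 0.007 over all genes. Both comparisons use the same 5 HBSS libraries.

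**Figure D5:**
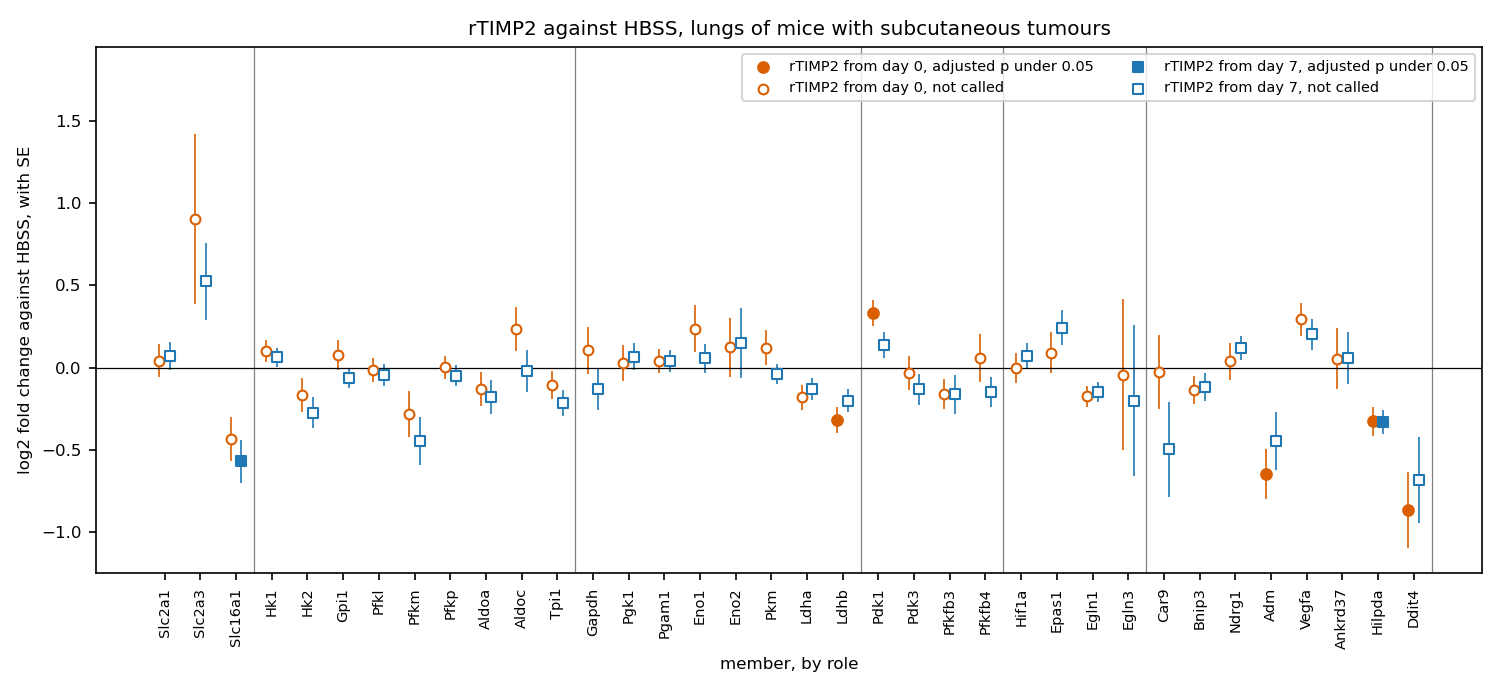
Log2 fold change of each member against HBSS, with its SE, for rTIMP2 from day 0 (orange circles) and from day 7 (blue squares) in lungs of mice with subcutaneous tumours. Filled symbols passed the test (Ldhb, Pdk1, Adm, Hilpda and Ddit4 from day 0, Slc16a1 and Hilpda from day 7), and all estimates lie between -0.87 and 0.90.

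With the day 0 start, Ddit4 was at 1105, 852, 957, 717 and 777 in treated lungs, against 931, 2338, 1775, 1492 and 1759.9 under HBSS. HBSS replicate 1 lay within the treated range and the other 4 above it, and Ddit4 changed by -0.87 ± 0.23 (SE; adjusted p = 0.0491) on the log2 scale. Adm was at 46.7, 41.4, 38.8, 39.9 and 39.8, against 67.3, 72.5, 73.0, 59.6 and 55.1 under HBSS. The groups did not overlap, and Adm changed by -0.65 ± 0.15 (SE; adjusted p = 0.0180). In all, 2 members, Adm and Egln1, did not overlap between the groups and were lower in treated lungs (background 4.65%). Pdk1 was at 878, 764, 876, 849.7 and 838, against 779.9, 634, 696, 644 and 599 under HBSS. HBSS replicate 1 overlapped the lowest treated lung, and Pdk1 rose by 0.33 ± 0.078 (SE; adjusted p = 0.0181). Ldhb was at 1950.3, 2065, 2348, 1874 and 1829.6, against 2722, 2376, 2459, 2313 and 2687 under HBSS. Treated replicate 3 overlapped the HBSS range, and Ldhb changed by -0.32 ± 0.080 (SE; adjusted p = 0.0242). Hilpda, at 1022 to 1339.7 in treated and 1289 to 1645 in HBSS lungs, changed by -0.33 ± 0.087 (SE; adjusted p = 0.0331). Of these 5 calls, Pdk1 held in every alternative tried. Ddit4 was lost in 11 of 17 alternatives, among them leaving out any 1 library other than HBSS replicate 1, and Hilpda was lost in 8 of 17. Without day 0 replicate 4 or 5 the called members were Pdk1 and Adm, and without HBSS replicate 3 they were Pdk1 and Ldhb. Without day 0 replicate 3 or HBSS replicate 2 or 5 there were 3.

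Replicate 1 of the day 0 group was high in several members: Slc2a3 was at 1893, 315, 286, 337 and 491 in replicates 1 to 5, Eno1 at 2399.9, 1388, 1428, 1534 and 1541 and Pkm at 11349, 8203, 7226, 7912 and 7694. That library also held the highest sums of neutrophil markers (42089, against 1794 to 7135 in the other 4) and of erythroid markers (794197, against at most 196757). 0 of 6 neutrophil and 0 of 5 erythroid markers were called between the groups by limma. The part of blood cells in these values was not tested. Slc2a3, the glucose carrier abundant in white blood cells, changed by 0.90 ± 0.52 (SE) and did not pass.

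With the day 7 start, Slc16a1 was at 347, 368, 362 and 383 in the 4 treated lungs, against 678, 582, 634, 441 and 424 under HBSS. Every treated lung lay under every HBSS lung, and Slc16a1 changed by -0.57 ± 0.13 (SE; adjusted p = 0.0188). Hilpda was at 1179, 1191, 1285 and 1183, against 1289, 1579.8, 1609, 1504 and 1645 under HBSS. HBSS replicate 1 exceeded the highest treated lung only narrowly, and Hilpda changed by -0.33 ± 0.073 (SE; adjusted p = 0.0128). Values did not overlap for 6 members, all lower: Slc16a1, Pfkm, Ldha, Ldhb, Egln1 and Hilpda (background 8.12%). Slc16a1 was lost without day 7 replicate 1, 2 or 3, whereas Hilpda held in every alternative tried. Leaving out HBSS replicate 1, the library with skeletal muscle transcripts in this table, gave 4 called members, with Ddit4 and Pfkm added. Ddit4 changed by -0.68 ± 0.26 (SE) and Adm by -0.45 ± 0.17 (SE) with all libraries, without passing.

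Between the starts at day 7 and day 0, 0 of 36 members differed by limma (background 0.235%), and 3 had an unadjusted p under 0.05 (background 12.9%). Aldoc was the 1 member without overlap, lower with the day 7 start (background 2.3%). The calls of Slc16a1 from day 7 alone and of Pdk1, Ldhb, Adm and Ddit4 from day 0 alone are thus not shown to differ by start. The day 7 minus day 0 difference was -0.14 ± 0.093 (SE) for Slc16a1 and -0.19 ± 0.068 (SE) for Pdk1.

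Among the other pathway genes, 2 of 70 rose and 9 fell with the day 0 start, beside 3.88% higher and 4.21% lower among all genes. The largest changes were those of Pdk4, a pyruvate dehydrogenase kinase (-1.20 ± 0.23 SE, adjusted p = 0.0127), Angptl4, a secreted lipase inhibitor (-0.85 ± 0.10 SE, adjusted p = 2.38e-04), P4ha1, a collagen prolyl hydroxylase (-0.83 ± 0.13 SE, adjusted p = 0.00199), the related P4ha2 (-0.61 ± 0.12 SE, adjusted p = 0.00605) and Bhlhe41, a transcription factor (0.54 ± 0.12 SE, adjusted p = 0.0187). With the day 7 start 2 of 70 rose and 10 fell, beside 4.46% and 5.92% of all genes. Pdk4 (-0.97 ± 0.24 SE, adjusted p = 0.0373) and Angptl4 (-0.66 ± 0.12 SE, adjusted p = 0.00764) again led, before Bhlhe40, a transcription factor (-0.44 ± 0.072 SE, adjusted p = 0.00348) and Jmjd6, an oxygenase (-0.41 ± 0.073 SE, adjusted p = 0.00476). Between the starts 0 of 70 passed.

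Few single cell markers were called beside these changes, but some summed levels lay apart. From day 0, Cldn5 of 8 endothelial, Sftpc of 6 alveolar type 2, Foxj1 of 4 club and airway and Actn2 and Ryr2 of 7 tested muscle markers fell, and Igf2bp1 of 2 tested injected-cell transcripts rose. From day 7, Cldn5, Ager of 6 alveolar type 1, Sftpc, Sftpb and Abca3 of 6 alveolar type 2, Foxj1, C1qb of 8 macrophage and Tnni3 among muscle markers fell, and Mki67 of 8 proliferation genes rose. The summed endothelial markers ranged over 53532 to 67180.5 under HBSS, 55766 to 67942 from day 0 and 56743 to 66088 from day 7, and the alveolar type 2 sums over 340113 to 413352, 250315 to 336121 and 272008 to 309154. Every alveolar type 2 sum in both treated groups thus lay under every HBSS sum. The low injected-cell sums were 69.5 to 84.5 under HBSS, 92.2 to 149 from day 0 and 70.4 to 101 from day 7. Proliferation sums were 836 to 989 under HBSS, 869 to 1483 from day 0 and 1035 to 1154 from day 7. The sums of the other lists overlapped between treated and HBSS lungs. The part of the cell markers in the member changes was not tested.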

How the data were processed

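PolyA RNA was measured in 44 libraries, 14 subcutaneous and 30 intratracheal. The deposited values are a signal per gene, normalized counts made by the authors for each table separately, and the tables were not merged. The submitters' processing notes name Partek, Bowtie2, STAR, DESeq2 and mm10, without roles or versions. Whole reads could not be recovered for every gene, so no count test was run.

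Genes with a value of at least 10 in as many libraries as the smaller group were kept. The linear models of limma 3.58.1 (R 4.3.3; empirical Bayes with trend and robust options) took log2(value + 1) of the compared groups, with Benjamini-Hochberg adjustment over all genes tested and a threshold of 0.05. Interactions used the 4 groups concerned. The fit was also run on simulated data with independent noise for each gene. Such data cannot check comparisons whose libraries vary together over many genes. Python 3.11.15, numpy 2.4.6, pandas 2.3.3, scipy 1.17.1 and matplotlib 3.10.9 made the other values. Library numbers are not stated to pair libraries, and the main test used no pairing. Library files showed no near-identical pairs.

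The members, gene lists and tests were chosen with earlier results of these data known. Full statistics are given for the called members with the largest changes, at most 12 per comparison, and values of every library for the called members of largest rise and fall in each role; up to 5 other pathway genes are named per comparison, and some that this rule takes are not reported here. Alternatives were another pseudocount, other filters, equal library totals, all groups in 1 fit, a replicate block, leaving out each library and, added after seeing the data, leaving out libraries with skeletal muscle transcripts.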

Additional observations from a re-analysis of the deposited data

Results flagged for a closer look

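In 39 of 324 sets of values, 1 member in 1 group of 4 or 5 libraries, the highest or lowest library lay so far from the others that the gap passed Dixon's 95% limit. Chance gives about 1 in 20 such sets. Normalized counts of each such library follow, with the range of the other libraries of its group where a library stood apart in 1 or 2 members. In mutant rTIMP2 tumour replicate 2, 9 members stood apart: high were Slc2a3 at 286, Ldhb at 1915, Pfkfb3 at 1650.3, Epas1 at 39122 and Vegfa at 11832, and low were Tpi1 at 1674, Pgk1 at 695, Pgam1 at 1335 and Ldha at 3799.8. In subcutaneous rTIMP2 from day 0 replicate 1, 6 members stood apart: high were Slc2a3 at 1893, Gpi1 at 4284, Gapdh at 904, Eno1 at 2399.9, Pkm at 11349 and Pfkfb4 at 1562. In mutant HBSS tumour replicate 3, 4 members stood apart: high were Slc2a1 at 5229, Egln3 at 2872, Ndrg1 at 5092 and Adm at 951. In wild-type rTIMP2 tumour replicate 3, 4 members stood apart: high were Hk2 at 1744, Pfkm at 4408, Aldoa at 30595 and Bnip3 at 1628. In subcutaneous HBSS replicate 1, 4 members stood apart: high were Pfkm at 1018, Aldoa at 10205, Tpi1 at 2573 and Egln3 at 278. In wild-type HBSS tumour replicate 1, 3 members stood apart: high were Epas1 at 16995 and Vegfa at 5484, and low were Slc16a1 at 1753.

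Bnip3 was low in subcutaneous rTIMP2 from day 7 replicate 3, at 690.2 against 769.9 to 772. Hilpda was high in subcutaneous rTIMP2 from day 7 replicate 3, at 1285 against 1179 to 1191. Slc2a3 was high in subcutaneous HBSS replicate 2, at 400.0 against 222 to 251. Slc2a3 was low in wild-type rTIMP2 tumour replicate 4, at 92.2 against 211 to 222. Pfkm was high in subcutaneous rTIMP2 from day 0 replicate 3, at 693 against 525 to 548. Eno1 was high in subcutaneous rTIMP2 from day 7 replicate 4, at 1595 against 1374 to 1393. Pfkfb4 was high in mutant HBSS tumour replicate 4, at 339.7 against 185 to 217. Ndrg1 was high in subcutaneous rTIMP2 from day 7 replicate 2, at 1106 against 995 to 1005. Ddit4 was high in mutant tumour-free replicate 4, at 792 against 259 to 371.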

How the results depend on the processing

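Counts of called members held within 1.5 times for both tumour comparisons under every alternative (leaving out a library gave 26 to 32 in wild-type and 26 to 30 in mutant lungs), and no call changed sign. Of the calls, 26 of 29 in wild-type and 25 of 29 in mutant tumour lungs held in all alternatives, against 1 of 5 for the day 0 start, 1 of 2 for the day 7 start and 0 of 18 for rTIMP2 in wild-type tumour lungs. For the day 0 start, 5 called members became 8 with all groups in 1 fit and 2 to 5 when a library was left out. For the day 7 start, 2 became 1 to 4 when a library was left out and 4 without the library holding skeletal muscle. For rTIMP2 in wild-type tumour lungs, 18 became 0 to 24 when a library was left out (24 without rTIMP2 replicate 4, 21 without HBSS replicate 1 and 0 without any of the others) and 0 without the libraries holding skeletal muscle. The 14 called paralog ratios became 0 to 14 when a library was left out and 0 without the libraries holding skeletal muscle, since smaller groups cannot reach the smallest p and fewer tests at that p do not pass the adjustment. The cause of the other changes was not tested.

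With a replicate block, called members were 3 for the day 0 start, 3 for the day 7 start and 0 for rTIMP2 in wild-type tumour lungs, while the 29 of each tumour comparison stayed 29. Same-numbered libraries deviated together (a correlation above 0.1) in at most 2 of 5 pairs of any comparison. In no comparison did every library correlate best with its own number, although 3 of 5 did in mutant tumour against tumour-free lungs. Weak correlations cannot settle whether libraries were paired. At equal library totals, the share of called genes that were higher went from 47.96% to 63.68% for the day 0 start, from 42.99% to 54.3% for the day 7 start and from 65.85% to 53.33% between the starts. It went from 58.5% to 49.39% for rTIMP2 in wild-type tumour lungs, from 46.57% to 50.99% for wild-type and from 46.78% to 50.91% for mutant tumour lungs, so the shares of higher and lower genes given for these comparisons depend on the scaling. Of nonzero values up to 20 steps, 81.3 to 82.7% per subcutaneous and 79.1 to 84.6% per intratracheal library were whole multiples of the step taken as a single read. Whole reads were therefore not recovered for every gene, and counting error was not given for low members such as Car9.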
